A study of Homo sapiens with 8 samples.

Results

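Aminoacyl-tRNA synthetases join each amino acid to its tRNA, which the ribosome then reads. The 38 genes described here are 19 cytosolic synthetases or subunits, 16 mitochondrial synthetases and 3 scaffold proteins of the multisynthetase complex. They were taken by name and by place of action, but with earlier results of these data known. A gene was measured by the probe set that carries its symbol alone and has the highest mean over the 8 arrays. By this rule 33 of the 38 were measured, out of 19775 genes on the array: 17 cytosolic enzymes, 15 mitochondrial enzymes and the scaffold protein AIMP1. MARS1, QARS1, TARS2, AIMP2 and EEF1E1 had none by this rule and are not analysed here.

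All 8 arrays come from NCI-H1975, a human cell line established from a lung adenocarcinoma, whose growth depends on a mutant EGFR. It was grown in RPMI medium with serum and kept for 24 h in DMSO vehicle, in osimertinib at 10 nM, in alpelisib at 1 µM or in both drugs. L-histidinol was absent or present at 2 mM in each case, so that the 8 conditions have 1 array each. Osimertinib binds mutant EGFR covalently and inhibits it, alpelisib inhibits the PI3K alpha catalytic subunit, and L-histidinol is a histidine analog that occupies the histidine enzyme and blocks charging of histidine tRNA. The L-histidinol effect rests on 4 array pairs matched by drug, and a drug effect on 2 arrays against the 2 vehicle arrays, all in 1 additive limma fit. With 1 array a condition, the spread behind every standard error (SE) is the departure from additive effects, not the spread between cultures.

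In the cytosol each amino acid has its own enzyme, with 2 exceptions among these genes: EPRS1 charges both glutamate and proline tRNAs, and phenylalanine needs the paired subunits FARSA and FARSB. A separate set of nuclear genes makes the enzymes that work inside mitochondria, whereas GARS1 and KARS1, counted here as cytosolic, each also give a mitochondrial form. Uncharged tRNA activates the kinase GCN2, which phosphorylates eIF2α and raises translation of the transcription factor ATF4. ATF4 pairs with C/EBP proteins on a composite element of DNA and is known to raise amino acid transporters, amino acid synthesis enzymes and several cytosolic synthetases.

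That element is shown first because its spread over the 38 genes differs by compartment. The letters TGATGNAAN were searched on both strands in RefSeq promoter windows (build GRCh38.p14) that run from 250 bases before a gene's start to 50 after it. Windows were found for 33 of the 38 genes, some with several, and not for LARS1, VARS1, YARS1, AARS2 and VARS2. Counted by gene, with a match in any of its windows, the letters occurred in 7 of 16 cytosolic genes (43.8%), in 1 of 14 mitochondrial genes (7.14%) and in 0 of the 3 scaffold genes, against 3.61% of the 15384 measured genes with a window and 4.45% of all 27305 genes with one. Each sequence below is read 5′ to 3′ along the gene's own strand, with the match in capitals and its flanks in lower case; GTTGCATCA and the like are the element on the other strand.
AARS1 (alanine), chr16:70289676-70289704, minus strand: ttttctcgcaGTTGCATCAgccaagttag
CARS1 (cysteine), chr11:3057408-3057436, minus strand: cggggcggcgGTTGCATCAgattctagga
GARS1 (glycine), chr7:30594834-30594862, plus strand: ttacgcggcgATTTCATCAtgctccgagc
IARS1 (isoleucine), chr9:92293693-92293721, minus strand: ttttcagcgcGTTGCATCAcctccgtgcg
MARS1 (methionine, not measured), chr12:57488053-57488081, plus strand: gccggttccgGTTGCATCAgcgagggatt
NARS1 (asparagine), chr18:57621804-57621832, minus strand: ctacgctctcTGATGCAACgccggaatcg
TARS1 (threonine), chr5:33440956-33440984, plus strand: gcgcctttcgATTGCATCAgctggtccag
YARS2 (mitochondrial tyrosine), chr12:32756076-32756104, minus strand: tccacactgcTGATGGAAAaattaagttt
AARS1, CARS1, IARS1 and MARS1, and NARS1 on its opposite strand, share the same 9 letters. A match is a description of the sequence and not a bound site, and the absence of these letters from a window says nothing of ATF4.

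L-histidinol raised most of the cytosolic synthetases and few of the mitochondrial ones. Of the 17 cytosolic enzymes 11 rose and 0 fell (adjusted p below 0.05), with a median change of 0.56 on the log2 scale, while 11.4% of all genes rose, 9.17% fell and the median gene changed by -0.01. The 11 were AARS1, CARS1, EPRS1, GARS1, IARS1, LARS1, NARS1, SARS1, TARS1, WARS1 and YARS1. Each was higher in all 4 drug backgrounds, with no overlap between its 4 arrays with and its 4 without the analog. How many of all genes do the same was not counted, and the 11 were picked by a test on the same arrays. Of the 15 mitochondrial enzymes 3 rose and 2 fell, with a median change of 0.00, and AIMP1 rose on its brightest probe set but not on its other 2. Cells were measured in bulk, so less RNA in every cell and fewer cells of one kind cannot be told apart.

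By the probe set used, the largest rise among the 33 was that of YARS1, the tyrosine enzyme. Its log2 intensity without L-histidinol was 9.80 in vehicle, 9.51 in osimertinib, 9.62 in alpelisib and 9.46 in both drugs, and with L-histidinol it was 10.69, 10.42, 10.40 and 10.15 in the same order, which is the order used for all values below. Every array with the analog stood above every array without it, and the fitted change was 0.82 ± 0.05 (SE, 1.77-fold, adjusted p = 2.99e-06). That probe set is a marked one, which can also bind other transcripts; the other, dimmer probe set of YARS1 gave 0.32 (adjusted p = 0.0483), with -0.01 in alpelisib, and the mean of both gave 0.57, below the 0.72 of WARS1 and of AARS1 by the same rule. WARS1, the tryptophan enzyme, gave 10.43, 10.72, 10.44 and 10.67 without and 11.36, 11.54, 11.24 and 11.22 with L-histidinol, a change of 0.78 ± 0.06 (adjusted p = 1.26e-05). The smallest of its 4 differences was that in both drugs, as it was for YARS1.

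AARS1, which charges alanine tRNA, stood at 10.35, 10.50, 10.49 and 10.62 without L-histidinol and at 11.19, 11.39, 11.08 and 11.16 with it (0.72 ± 0.06, adjusted p = 2.71e-05). SARS1, the serine enzyme, stood at 10.29, 10.35, 10.33 and 10.39 without and at 11.12, 11.10, 11.00 and 10.92 with it (0.70 ± 0.05, adjusted p = 1.46e-05). On the probe sets used, both moved with the analog in each drug background, and neither was called in a drug comparison of the additive fit. Both drugs changed AARS1 by 0.27 without L-histidinol and by -0.03 with it, and SARS1 by 0.10 and -0.21. In the fit with all 2-way terms AARS1 was called higher in osimertinib (0.18, adjusted p = 0.0486). For the mean of its 2 probe sets SARS1 changed by -0.29 in osimertinib and by -0.55 in both drugs (adjusted p = 0.0316 and 0.000829). For EPRS1, the enzyme of glutamate and proline, the levels were 10.14, 10.12, 10.07 and 10.06 without and 10.91, 10.88, 10.73 and 10.57 with L-histidinol (0.67 ± 0.05, adjusted p = 1.46e-05), and its 3 probe sets gave mean changes of 0.64 to 0.71. CARS1, the cysteine enzyme, gave 9.92, 10.29, 10.14 and 10.51 without and 10.77, 10.93, 10.81 and 10.91 with it (0.64 ± 0.06, adjusted p = 7.37e-05). CARS1 was already raised on the drug arrays without L-histidinol, and its rise was 0.85 in vehicle and 0.40 in both drugs.

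The other 5 enzymes that rose were IARS1, for isoleucine, by 0.62 ± 0.05, TARS1, for threonine, by 0.57 ± 0.04, LARS1, for leucine, by 0.56 ± 0.05, GARS1, for glycine, by 0.51 ± 0.04, and NARS1, for asparagine, by 0.40 ± 0.04. TARS1 responded almost equally in the 4 backgrounds, with rises of 0.58, 0.59, 0.58 and 0.54. The 6 cytosolic enzymes that did not pass the test were VARS1 (valine) at 0.07, KARS1 (lysine) at -0.02, RARS1 (arginine) at -0.04, HARS1 (histidine) at -0.08 and the phenylalanine subunits FARSB at -0.10 and FARSA at -0.16. On the probe sets used, the cytosolic set therefore held a group near 0 and a group at 0.40 or more, with no member between 0.07 and 0.40. Other, dimmer probe sets of these genes fell inside that gap. They gave mean changes of 0.32 for YARS1, 0.24 and 0.39 for LARS1, 0.39 for TARS1 and 0.16 for FARSB.

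**Figure D1:**
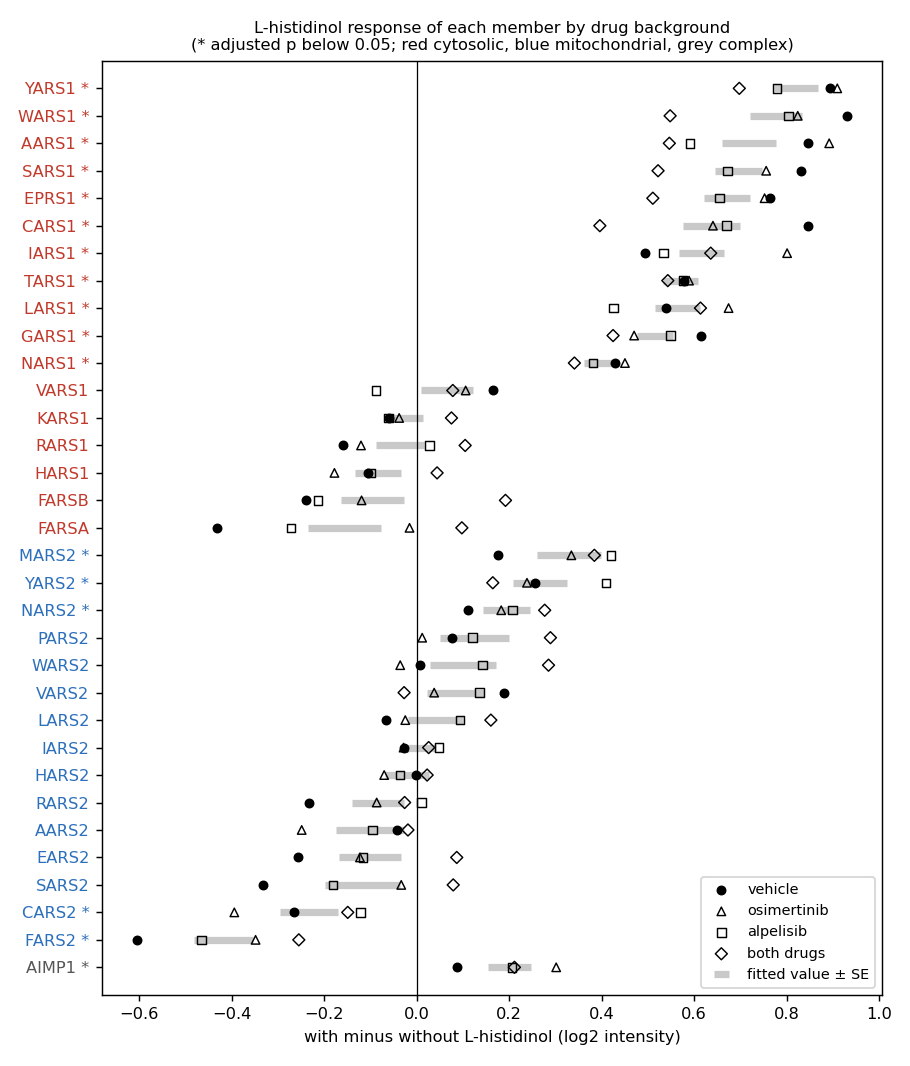
Difference in log2 intensity with minus without L-histidinol for each of the 33 measured genes, with 1 symbol for each drug background and a grey bar for the fitted value ± SE. The 11 cytosolic genes with an asterisk lie right of 0 in all 4 backgrounds, whereas 3 mitochondrial genes with an asterisk lie right of 0 and 2 left of it.

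Rises occurred inside and outside the multisynthetase complex and in both structural classes. Of the 5 measured cytosolic enzymes that sit in the multisynthetase complex 3 rose, with a median of 0.56, and of the 12 outside it 8 rose, with a median of 0.54. Synthetases have 1 of 2 unrelated catalytic folds, class I and class II. Of the 7 class I enzymes 5 rose (median 0.62) and of the 9 class II enzymes 5 rose (median 0.40), with EPRS1, which holds both folds, left aside. No test was made between these groups.

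Set beside the promoter letters, all 6 measured cytosolic genes that hold the element (AARS1, CARS1, GARS1, IARS1, NARS1 and TARS1) rose, by 0.40 to 0.72 with a median of 0.59. Of the 8 with a window that lacks it 3 rose, namely EPRS1, SARS1 and WARS1, and the median was -0.03. Of the 3 without a window LARS1 and YARS1 rose and VARS1 did not, with a median of 0.56. YARS2, the 1 mitochondrial gene with the element, was among the 3 mitochondrial genes that rose. These are counts in a few genes and were not tested. The share that rose among all genes with the element was not counted.

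Among the mitochondrial enzymes MARS2, for methionine, rose most, from 7.15, 6.0, 6.56 and 5.54 without L-histidinol to 7.32, 6.34, 6.98 and 5.93 with it (0.33 ± 0.07, adjusted p = 0.00621). Its arrays with and without the analog overlapped, and the drugs moved it further than the analog did. YARS2 rose by 0.27 ± 0.06 (adjusted p = 0.00722) and NARS2, the asparagine enzyme, by 0.19 ± 0.05 (adjusted p = 0.0194), from 8.77, 8.44, 8.54 and 8.19 to 8.88, 8.62, 8.75 and 8.47. FARS2, the phenylalanine enzyme, fell from 8.57, 8.37, 8.47 and 8.26 to 7.96, 8.03, 8.01 and 8.0 (a change of -0.42 ± 0.06, adjusted p = 0.00102). All 4 FARS2 arrays with the analog lay below the 4 without it, and the fall was -0.60 in vehicle and -0.26 in both drugs. The arrays of AARS2 and PARS2 did not overlap either, at changes of -0.10 and 0.12 that were not called (adjusted p = 0.392 and 0.297). CARS2, the cysteine enzyme, changed from 8.08, 7.99, 7.92 and 7.58 to 7.81, 7.60, 7.79 and 7.44 (-0.23 ± 0.06, adjusted p = 0.0208). For the mean of its probe sets CARS2 was not called (-0.10, adjusted p = 0.345). The other 10 did not pass the test; IARS2, for isoleucine, was the steadiest, with 10.89 to 10.95 over all 8 arrays.

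Several of these smaller calls rested on single arrays. CARS2 and NARS2 were no longer called when an osimertinib or an alpelisib array was left out, CARS2 also without the vehicle array and NARS2 also without either array with both drugs. MARS2 and YARS2 lost their calls without either array with alpelisib alone, which left 11 genes called higher. FARSA and FARSB were called lower without either array with both drugs. The 11 cytosolic rises were called whichever array was left out.

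AIMP1, the scaffold that ties synthetases together in the complex, gave 10.19, 9.84, 9.88 and 9.67 without and 10.28, 10.14, 10.09 and 9.88 with L-histidinol on its brightest probe set (0.20 ± 0.05, adjusted p = 0.0101), but its other 2 probe sets were lower with the analog in all 4 backgrounds, by -0.28 and -0.14 on average. The direction for AIMP1 thus depends on the probe set, and its call was lost when an osimertinib or an alpelisib array, without or with the analog, was left out.

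Enzymes of the same amino acid were then set side by side. In 13 of 15 cytosolic and mitochondrial pairs the cytosolic gene had the higher L-histidinol response, in 12 of them in all 4 backgrounds, and the median difference was 0.55 on the log2 scale. EPRS1 and FARS2 each enter 2 pairs, so the pairs are not independent. The widest gaps were those of CARS1 over CARS2 (0.87), AARS1 over AARS2 (0.82) and SARS1 over SARS2 (0.81). The 2 exceptions were valine, with a gap of -0.02, and histidine, with a gap of -0.06. For phenylalanine the gap of 0.26 to 0.32 came from the fall of FARS2, since neither cytosolic subunit rose.

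**Figure D2:**
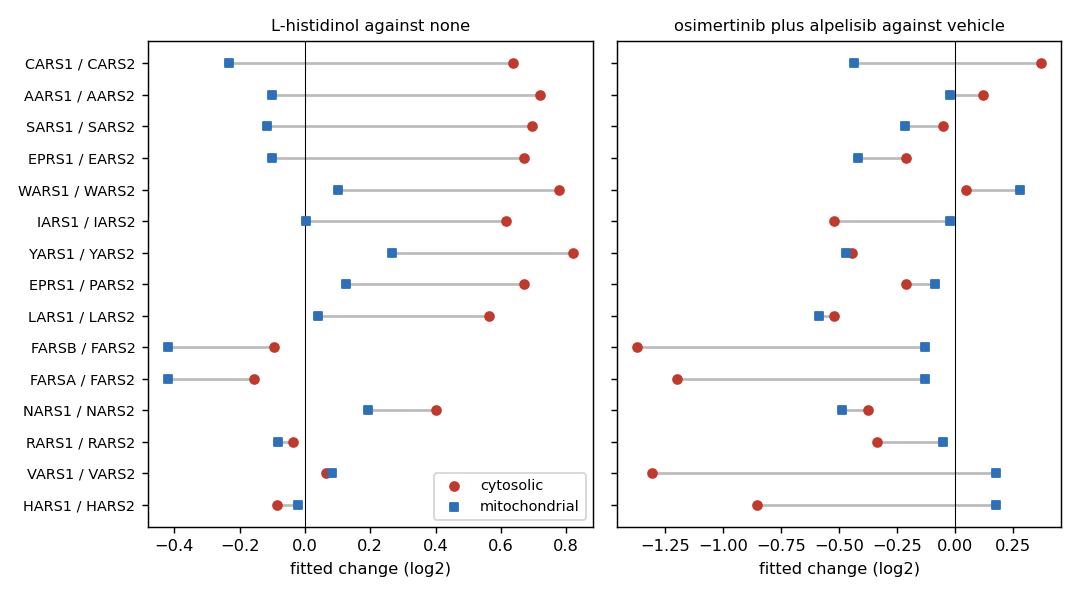
Fitted log2 changes of the cytosolic gene (red circle) and the mitochondrial gene (blue square) for 15 pairs that charge the same amino acid, for L-histidinol on the left and for osimertinib plus alpelisib on the right. On the left 13 circles lie right of their square; on the right 8 circles lie left of theirs, with the widest gaps in valine, phenylalanine and histidine.

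HARS1, the cytosolic enzyme that L-histidinol occupies, and HARS2, its mitochondrial counterpart, are neighbours that start back to back. By RefSeq (GRCh38.p14) HARS1 starts at 140691370 on the minus strand of chromosome 5 and HARS2 at 140691455 on its plus strand. The 84 bases between these starts are shown because both genes are read outward from them, and they are given along the plus strand.
HARS1 to HARS2, chr5:140691371-140691454: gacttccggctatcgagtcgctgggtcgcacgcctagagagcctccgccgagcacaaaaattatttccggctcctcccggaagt
Neither gene's window held TGATGNAAN. HARS1 stood at 9.79, 9.29, 9.47 and 8.86 without L-histidinol and at 9.68, 9.12, 9.38 and 8.91 with it, a change of -0.08 ± 0.05 (adjusted p = 0.289). HARS2 stood at 8.69, 8.90, 8.67 and 8.86 without and at 8.69, 8.83, 8.63 and 8.88 with it, a change of -0.02 ± 0.05 (adjusted p = 0.823). Neither passed the test for the analog, yet HARS1 fell in each drug treatment, by 0.53 ± 0.07 in osimertinib, 0.31 ± 0.07 in alpelisib and 0.85 ± 0.07 in both drugs (adjusted p = 0.000183, 0.0171 and 2.08e-06). The values of HARS2 in the same comparisons were 0.17 ± 0.07, -0.04 ± 0.07 and 0.18 ± 0.07 (adjusted p = 0.0813, 0.783 and 0.0605). In both drugs HARS2 passed the threshold when genes with a mean log2 under 5 were left out (adjusted p = 0.0433), and stood at 0.04 when arrays were centred on their median.

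Osimertinib plus alpelisib gave the widest shift of the family. Of the 33 genes 19 fell and 2 rose, against 19.2% of all genes that fell and 21.4% that rose. Of the 17 cytosolic enzymes 12 fell and 1 rose, with a median of -0.42, and of the 15 mitochondrial enzymes 6 fell and 1 rose, with a median of -0.13, beside a median of -0.00 over all genes. AIMP1 fell by 0.46 ± 0.07 (adjusted p = 0.000137). In both L-histidinol states the combination array was the lowest of the 4 drug arrays for 12 cytosolic enzymes, 6 mitochondrial enzymes and AIMP1. The share of all genes with that order was not counted, so these counts have no reference beside them.

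The deepest fall was that of MARS2, whose levels without the analog, given above, ran from 7.15 in vehicle to 5.54 in both drugs (-1.50 ± 0.10, 2.83-fold lower, adjusted p = 4.23e-07). The phenylalanine subunits fell together. FARSB stood at 9.97, 9.25, 9.58 and 8.38 without and at 9.73, 9.14, 9.36 and 8.57 with L-histidinol (-1.37 ± 0.10, adjusted p = 6.69e-07), although its other 2 probe sets are dim (mean log2 of 4.03 and 2.15) and it was not called without its marked probe set. FARSA stood at 9.40, 8.41, 8.85 and 7.93 without and at 8.96, 8.39, 8.58 and 8.03 with it (-1.20 ± 0.11, adjusted p = 4.87e-06). VARS1 stood at 9.0, 8.40, 8.73 and 7.74 without and at 9.17, 8.50, 8.64 and 7.82 with it (-1.31 ± 0.08, 2.47-fold lower, adjusted p = 2.59e-07). Its 2 probe sets are both marked, and their mean gave a smaller fall, -0.86 (adjusted p = 9.77e-05). In these genes and in HARS1 the 4 treatments took the same order in both L-histidinol states: vehicle highest, then alpelisib, osimertinib and both drugs.

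LARS2, the mitochondrial leucine enzyme, fell by 0.59 ± 0.08 (adjusted p = 0.000124), from 8.23 and 8.16 in the vehicle arrays to 7.52 and 7.68 in the combination arrays. TARS1 fell by 0.53 ± 0.05, from 10.51 to 10.00 without the analog and from 11.09 to 10.54 with it. The remaining falls ran from -0.52 in IARS1 to -0.21 in EPRS1. CARS1 rose by 0.37 ± 0.09 (adjusted p = 0.00445), and WARS2, the mitochondrial tryptophan enzyme, by 0.28 ± 0.10 (adjusted p = 0.0452). For the mean of probe sets neither was called, at 0.17 for CARS1 and 0.09 for WARS2 (adjusted p = 0.224 and 0.459). With arrays centred on their median, CARS1 stood at 0.24 (adjusted p = 0.0473) and WARS2 at 0.15 (adjusted p = 0.254). WARS2 gave 6.79, 6.89, 6.76 and 6.93 without and 6.79, 6.86, 6.90 and 7.21 with L-histidinol, so that 1 array stood above the others. WARS2 was called with all arrays and without the combination array that lacks the analog, and not when any other array was left out. CARS1 was not called without the vehicle array or without that combination array, EARS2 not without that combination array, and EPRS1 not without either array with alpelisib alone, the array with L-histidinol alone or that with L-histidinol and both drugs.

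Osimertinib alone lowered 11 of the 33 genes and raised 2, against 14.0% and 16.4% of all genes. Of the cytosolic enzymes 8 fell and 2 rose (median -0.16), of the mitochondrial enzymes 2 fell (median -0.06), and AIMP1 fell by 0.24 ± 0.07. MARS2 changed by -1.07 ± 0.10 (adjusted p = 1.59e-05), FARSA by -0.78 ± 0.11 (adjusted p = 0.000291), FARSB by -0.65 ± 0.10 (adjusted p = 0.000358) and VARS1 by -0.64 ± 0.08 (adjusted p = 0.000118). These 4 and HARS1 were the 5 largest falls. The 2 genes that rose, CARS1 by 0.27 ± 0.09 (adjusted p = 0.0374) and WARS1 by 0.23 ± 0.08 (adjusted p = 0.0468), lost their calls when any 1 of several arrays was left out, among them the vehicle and osimertinib arrays. Without the osimertinib array 6 genes were called lower.

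Alpelisib alone lowered 8 of the 33 and raised 0, against 4.38% and 7.08% of all genes. The cytosolic enzymes held 6 of these falls (median -0.16), the mitochondrial enzymes held that of MARS2 (median -0.04), and AIMP1 the other. FARSA changed by -0.46 ± 0.11 (adjusted p = 0.0219), MARS2 by -0.46 ± 0.10 (adjusted p = 0.0121), VARS1 by -0.40 ± 0.08 (adjusted p = 0.00899) and FARSB by -0.38 ± 0.10 (adjusted p = 0.0283). All 8 calls were lost without the array with L-histidinol and alpelisib, 1 remained without the alpelisib array, 2 without the vehicle array and 5 without either array with osimertinib alone.

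The split of the drug calls depends on how arrays are set to one scale. The median log2 level over the 19775 genes ran from 5.74 to 5.88 and was lowest on the 2 vehicle arrays. With each array centred on it, which moves the median gene change to -0.09 in osimertinib, -0.08 in alpelisib and -0.13 in both drugs, 18 of the 33 fell and 0 rose in osimertinib, 14 fell and 0 rose in alpelisib, and 23 fell and 1 rose in both drugs. Over all genes the same centring turned 3246 rises and 2765 falls in osimertinib into 2289 and 4123, 1401 and 866 in alpelisib into 953 and 2000, and 4233 and 3800 in both drugs into 3178 and 5516. AARS1 in both drugs was 0.12 as deposited and -0.01 after centring, and WARS1 0.04 and -0.09, so neither has a direction that holds under both scalings.

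**Figure D3:**
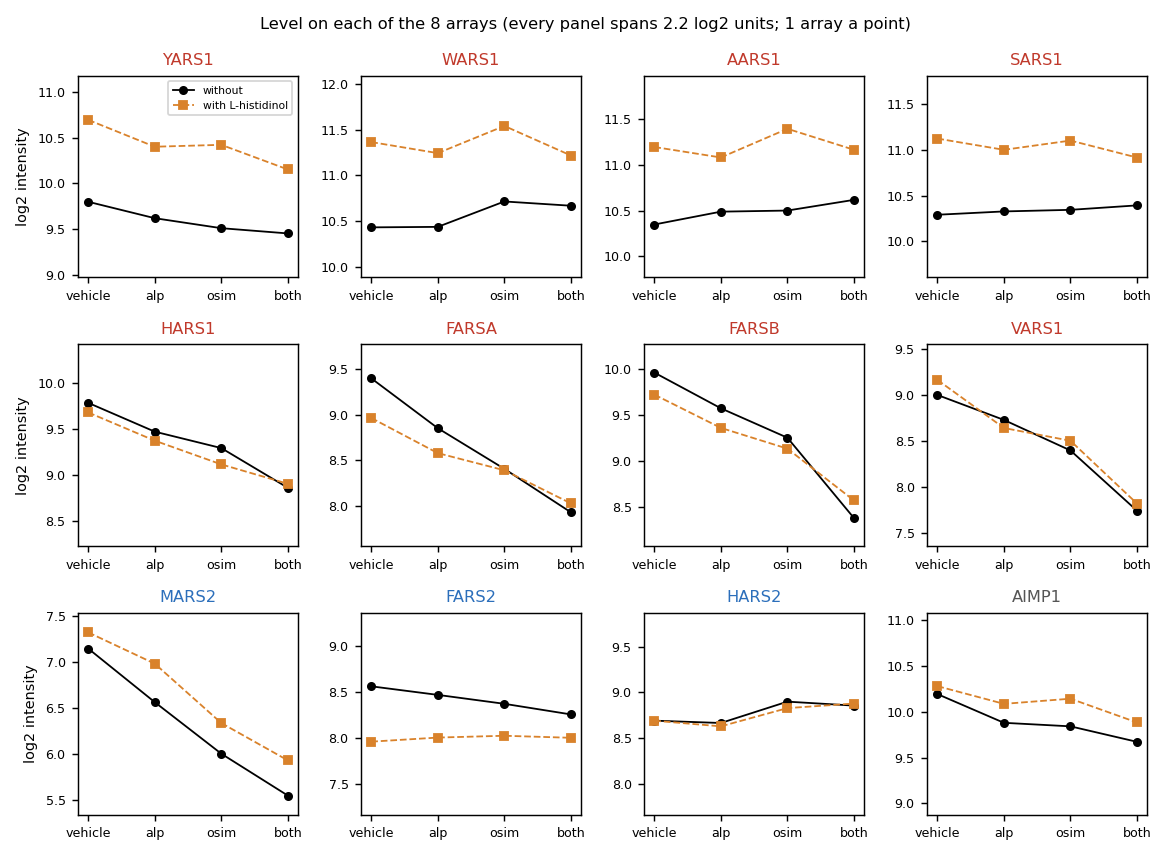
Log2 intensity of 12 of the genes on each of the 8 arrays, by drug treatment, without L-histidinol (black circles) and with it (orange squares), in panels that all span 2.2 log2 units. On the probe sets used, the lines lie apart for AARS1 and SARS1. They fall together and close to each other for HARS1, FARSA, FARSB and VARS1, and MARS2 shows a fall with both lines apart.

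The comparisons use the same arrays, so their values are given side by side without a test of the likeness. The 11 cytosolic genes that rose with L-histidinol had a median of -0.21 in both drugs, with a range of -0.53 to 0.37, and 6 of them fell and 1 rose. The 6 that did not pass for L-histidinol had a median of -1.03 in both drugs, with a range of -1.37 to -0.34, and all 6 fell. In osimertinib 5 of these 6 fell and in alpelisib 4, against 3 and 2 of the 11. Among the 15 same amino acid pairs the cytosolic gene was the lower one in both drugs in 8, with gaps of -1.48 for valine, -1.24 and -1.07 for the phenylalanine subunits and -1.03 for histidine.

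**Figure D4:**
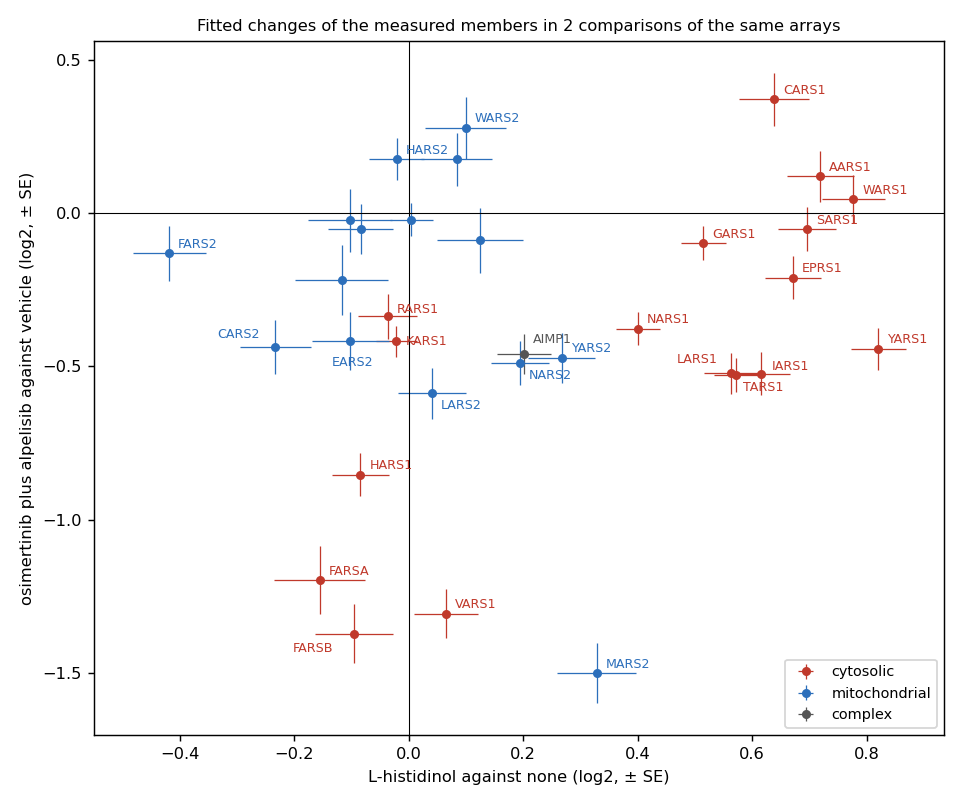
Fitted log2 change with L-histidinol (horizontal axis, ± SE) and with osimertinib plus alpelisib (vertical axis, ± SE) for the 33 measured genes. The 11 cytosolic genes at the right lie between -0.53 and 0.37 on the vertical axis, and the 6 cytosolic genes near 0 on the horizontal axis lie between -1.37 and -0.34.

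The rise with L-histidinol was also compared between drug backgrounds. The median response of the cytosolic enzymes was 0.54 in vehicle, 0.59 in osimertinib, 0.53 in alpelisib and 0.42 in both drugs, and that of the mitochondrial enzymes was -0.03, -0.03, 0.05 and 0.08. In the limma fit with all 2-way terms 0 of the 33 genes had a response that was changed by osimertinib or by alpelisib after adjustment, as for 0.0% of all genes, and at an unadjusted p under 0.05 there were 4 and 5 of the 33 and 1653 and 998 of all genes. When that fit, which has 1 residual degree of freedom, set its own prior, 896 and 278 genes were called, among them CARS1, FARSA, FARSB and IARS1 for osimertinib and AARS1 for alpelisib. The L-histidinol response of FARSA differed by 0.39 ± 0.11 with osimertinib and that of CARS1 by -0.24 ± 0.08, and the response of AARS1 differed by -0.30 ± 0.08 with alpelisib. In both drugs the mitochondrial enzymes had a median of -0.31 against vehicle without L-histidinol and of -0.01 with it, and the cytosolic enzymes -0.47 and -0.42. The difference between these medians was not tested.

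Other genes of tRNA charging and of its sensing were counted from lists set by name, also with earlier results of these data known. Of the tRNA export, repair and proofreading list 5 of 8 genes were measured, and of the amidotransferase and selenocysteine list 6 of 8. Of the cytosolic and mitochondrial elongation factor lists 5 of 7 and 4 of 5 were measured. Over all genes 11.4% rose with L-histidinol, and 21.4% rose and 19.2% fell in both drugs. Among proteins that export, repair or proofread tRNA 3 of 5 rose with L-histidinol: XPOT, the tRNA exporter, by 1.00 ± 0.06 (adjusted p = 2.99e-06), DTD1, which removes D-amino acids from tRNA, by 0.50 ± 0.05, and TRNT1, which adds the CCA end, by 0.31 ± 0.05. All 5, with XPO5 and DTD2, fell in both drugs, TRNT1 by 1.01 ± 0.07 and DTD1 by 0.65 ± 0.07. XPOT changed by -0.47 ± 0.08 there.

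Among 6 amidotransferase, formylation and selenocysteine enzymes QRSL1, a subunit of the mitochondrial glutaminyl-tRNA amidotransferase, rose by 0.26 ± 0.06 and SEPSECS, which makes selenocysteine on its tRNA, by 0.23 ± 0.07, and QRSL1, PSTK and MTFMT fell in both drugs. Of 5 cytosolic elongation factors EEF2, the translocase, rose by 0.15 ± 0.03, and EIF5A fell in both drugs by 0.58. Of 4 mitochondrial elongation factors GUF1 rose by 0.30 ± 0.05 and TUFM, which brings charged tRNA to the mitochondrial ribosome, by 0.19 ± 0.04, and all 4, with GFM1 and TSFM, fell in both drugs.

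Of 6 genes that sense uncharged tRNA or act on eIF2 4 rose with L-histidinol. PPP1R15A, which directs the phosphatase to eIF2α, rose by 0.89 ± 0.09, IMPACT, an inhibitor of GCN2 activation, by 0.51 ± 0.06, PPP1R15B by 0.34 ± 0.06 and EIF2S1, which is eIF2α itself, by 0.29 ± 0.05. EIF2AK4, the gene of GCN2, stood at -0.04 ± 0.06 (adjusted p = 0.654). In both drugs IMPACT, PPP1R15B and EIF2S1 fell. All 10 genes of a list of ATF4 and amino acid genes rose, with a median of 1.33, among them ASNS, which makes asparagine, by 2.02 ± 0.12, CHAC1, which degrades glutathione, by 1.77 ± 0.14, and PSAT1, of serine synthesis, by 1.69 ± 0.05. In both drugs 3 of these 10 rose and 4 fell. EIF2S1, EIF2AK4, XPO5, DTD2, PSTK, MTFMT, EIF5A and TSFM were named after their values had been seen.

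The median intensity of an array over all probe sets lay between 21.8 and 22.4. The ratio of 3′ to 5′ control probe sets of ACTB was 1.04 to 1.07 on the arrays without L-histidinol and 1.10 to 1.15 on those with it, and that of GAPDH 0.978 to 1.01 and 0.966 to 0.982; the part of RNA quality in the L-histidinol results was not tested. All 6 lung epithelial markers were expressed, with mean log2 levels from 8.53 for NKX2-1 to 13.06 for KRT7, beside a median of 5.85 over all genes. Of the 6, 3 fell with L-histidinol, against 9.17% of all genes, and 4 rose in both drugs, against 21.4%. Of 9 markers of fibroblasts, blood and endothelium 8 had means of 2.17 to 5.18, and COL1A1, a collagen gene, had 9.14. COL1A1 changed by -0.41 ± 0.06 with L-histidinol, by 1.34 ± 0.09 in osimertinib, by 0.38 ± 0.09 in alpelisib and by 1.53 ± 0.09 in both drugs (adjusted p = 0.00125, 2.13e-06, 0.021 and 2.22e-07). LUM, at a mean of 2.17, rose by 0.63 in osimertinib and by 1.23 in both drugs, and CDH5, at a mean of 2.71, by 0.78 in both drugs. Their part in the drug results was not tested.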

How the data were processed

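Total RNA of 8 conditions was hybridised to Affymetrix Human Genome U133 Plus 2.0 arrays. The deposited values are linear intensities per probe set, made by the authors with RMA and affy per the submitters' processing notes. Versions were not given in the sources used here. Each intensity was taken to log2. Of 54675 probe sets 62 are controls, 41091 had 1 symbol in a platform annotation that can be old, 1801 several and 11721 none; those with several or none were left out. Of the 33 measured genes 9 rest on a marked probe set (_s_at or _x_at), which can also bind other transcripts. Levels of different genes are not compared, since probe sets differ in brightness.

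limma 3.58.1 (R 4.3.3) fitted L-histidinol plus the 4 drug treatments with a variance trend (3 residual and 8.08 prior degrees of freedom). The test of a changed L-histidinol response used all 2-way terms (1 residual degree of freedom) and the additive fit's prior. Calls were made at a Benjamini-Hochberg adjusted p below 0.05, with the adjustment over all 19775 genes. The number of arrays limits the precision, and the labels do not say that conditions came from separate cultures.

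Named with every array were HARS1, HARS2, AIMP1 and, per comparison, up to 6 called rises and 6 called falls of largest size. Of these, LARS2 and TARS1 are given only on the arrays with vehicle and with both drugs. From each other list, up to 3 genes by L-histidinol change were named. Members, lists and tests were chosen with earlier results of these data known. The comparison of the HARS1 and HARS2 proteins planned with these tests was not made. Alternatives were a mean over probe sets, no marked probe sets, arrays centred on their median log2 over genes, genes with a mean log2 of at least 5, 1 prior for all genes, all 2-way terms and each array left out. The fits were tested on simulated data. Python 3.11.15 with pandas 2.3.3 and matplotlib 3.10.9 made the tables and figures.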

Additional observations from a re-analysis of the deposited data

How the results depend on the processing

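Of single-gene results under the alternatives other than leaving out an array, 390 kept their side of the threshold, 42 lost a call, 11 gained one and 5 reversed. A reversal is a change of sign in which either value was called. The 390 therefore include changes of sign between values that were not called, as for AARS1 and WARS1 in both drugs after centring. The reversals were AIMP1 with L-histidinol (-0.0747 for the mean of probe sets, -0.28 without marked probe sets), FARSB without marked probe sets (0.0023 in osimertinib and 0.0047 in alpelisib, on a dim probe set) and SARS1 in osimertinib (-0.29 for the mean of probe sets). Median L-histidinol changes became 0.48 (cytosolic) and -0.019 (mitochondrial, reversed) for the mean of probe sets and 0.36 (cytosolic) without marked probe sets, which leaves no value for EPRS1, GARS1, IARS1, LARS1 and VARS1. Members called became, with 1 prior for all genes, 1 lower for L-histidinol, 1 lower in alpelisib, 0 higher and 7 lower in osimertinib and 1 higher in both drugs. For the mean of probe sets they became 1 lower for L-histidinol and 2 lower in alpelisib. By that mean they became 0 higher in osimertinib and 1 higher, HARS2, in both drugs. Without marked probe sets they became 10 higher and 3 lower for L-histidinol, 13 lower in both drugs, 4 lower in alpelisib and 1 higher and 7 lower in osimertinib, where the 5 genes without a value are not counted. Centred arrays gave 14 lower in alpelisib, 0 higher and 18 lower in osimertinib and 1 higher in both drugs, and the 2-way fit's own prior gave 4 changed responses for osimertinib and 1 for alpelisib. Leaving out each array gave 11 to 15 higher and 1 to 4 lower for L-histidinol, 0 to 2 higher and 6 to 12 lower for osimertinib, 0 to 0 higher and 0 to 9 lower for alpelisib and 0 to 2 higher and 18 to 19 lower for both drugs; the 4 lower are reached without either array with both drugs, where FARSA and FARSB are called. The cause of these changes was not tested. The mean log2 levels of PARS2 and AARS2, 5.87 and 5.92, lie near the median of all genes. SARS2 was little brighter, with a mean of 6.18. MARS2, with 1 probe set, stood at 5.54 and 5.93 on the arrays with both drugs, also near that median. Whether signal limits the changes of these genes, the fall of MARS2 among them, was not tested. The fit matches the L-histidinol arrays by drug treatment. No further pairing by replicate was possible, because each condition has 1 array and the labels carry no replicate numbers to pair by.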
